A study of Mus musculus with 9 samples.

Results

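Cytosolic ribosomal protein genes were followed in B16.SIY, a mouse melanoma cell line, after knockdown of Decr2, which encodes a peroxisomal enzyme of unsaturated fatty acid breakdown. Members were taken by name from the deposited table: names beginning with Rpl or Rps and a digit, together with Rplp0, Rplp1, Rplp2 and Rpsa, leaving out the Rps6k kinases, Rps19bp1 and names that hold -ps. The rule gave 82 of 10762 genes, 49 of the large subunit and 33 of the small subunit, and all 82 are annotated as protein-coding in GENCODE M21 (assembly GRCm38). The groups were a stable line with Decr2 shRNA1, a stable line with Decr2 shRNA2 and a stable line with a control shRNA, with 3 RNA-seq libraries each, numbered 0, 1 and 2 in the titles. All 3 lines were of the C57BL/6 strain, carried the model antigen SIY fused to dsRED, were infected with lentivirus and selected with puromycin, and grew in the same serum-containing medium. The labels do not say whether a line was a clone or a pool, nor whether the libraries of a line came from separate cultures. In such bulk libraries, fewer cells of a type and less RNA per cell cannot be told apart.

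Each ribosome is built from ribosomal RNA and the proteins these genes encode, and a growing cell devotes a large share of its messages to making them. Most of their messages begin with a C followed by a run of pyrimidines, the 5′ terminal oligopyrimidine (TOP) motif, through which the kinase complex mTORC1 and the RNA-binding protein LARP1 control their translation and stability together. Ribosomes are assembled in the nucleolus, where RNA polymerase I makes the ribosomal RNA and a separate set of assembly factors, many of them targets of Myc, folds and trims it. Several members have a second, closely related gene (a paralog), whose protein can in some cases take the place of the usual subunit.

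The first bases of 7 members are shown to let the TOP motif be compared by eye: the 2 members that fell, the parent gene of 1 of them, and 4 members whose annotated start is a TOP motif. Each window holds 15 bases before and 15 bases from the annotated RefSeq transcription start on the gene's strand (GRCm38.p6), and capitals mark the first 5 bases of the message. Rpl7l1 is at chr17:46782642-46782671 on the minus strand, Rpl36al at chr12:69184053-69184082 on the minus strand, and Rpl36a at chrX:134585639-134585668 on the plus strand. Rps6 is at chr4:86857353-86857382 on the minus strand, Rplp2 at chr7:141447636-141447665 on the plus strand, Rps27 at chr3:90213634-90213663 on the minus strand, and Rps27rt at chr9:114982725-114982754 on the minus strand.
Rpl7l1: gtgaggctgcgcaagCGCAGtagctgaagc
Rpl36al: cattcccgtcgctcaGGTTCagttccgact
Rpl36a: gtgcacccaggcaccGCCTAtaaacttccg
Rps6: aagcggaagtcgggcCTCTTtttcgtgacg
Rplp2: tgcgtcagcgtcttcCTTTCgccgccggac
Rps27: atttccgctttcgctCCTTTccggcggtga
Rps27rt: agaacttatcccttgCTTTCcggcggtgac

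A C at the annotated start followed by at least 4 bases that are each C or T, read on the gene's strand, was found in 14 of the 62 members with an entry in the RefSeq promoter table, or 22.6%. Counted by start, 14 of 73 member starts had it (19.2%), against 823 of 32851 starts of all genes (2.51%). Such a run began within 10 bases of the annotated start in 39 of the 73 member starts (53.4%), against 30.7% of all starts. Neither Rpl7l1 nor Rpl36al had the run at its annotated start. The log2 fold change of both hairpins over control had a median of -0.01 in the 14 members with the run at the start and of -0.04 in the other 48.

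The knockdown was checked first. Decr2 had log2 values of 2.87, 2.51 and 3.18 with shRNA1 and of 0.84, 1.18 and 1.55 with shRNA2, against 3.96, 4.10 and 3.71 with the control shRNA, so all 6 hairpin libraries lay below the controls. Across all genes, 12.4% were called with shRNA1, 12.9% with shRNA2 and 17.6% in the mean of both hairpins (limma, Benjamini-Hochberg adjusted p under 0.05 over all genes). These shares depended on the setting: with the replicate number as a block they were 24.6%, 24.0% and 30.3%, and without the 3 libraries numbered 0 they were 34.5%, 37.3% and 41.4%. With control replicate 1 dropped they were 3.15%, 3.88% and 5.72%, and with control replicate 2 dropped 3.05%, 3.77% and 5.86%. The shRNA1 share was also 7.02% with shRNA1 replicate 1 dropped and 6.02% with shRNA1 replicate 2 dropped. The shRNA2 share was also 22.8% with shRNA1 replicate 0 dropped, 4.01% with shRNA2 replicate 1 dropped and 4.38% with shRNA2 replicate 2 dropped. Libraries of 1 group correlated at 0.966 to 0.994 and libraries of different groups at 0.955 to 0.988. Deviations from the group means were shared by libraries of the same number, most of all by the 3 libraries numbered 0, and the counts of members were also made without those 3. All 7 melanocyte lineage markers were listed and none was called with a hairpin, although 6 of the 7 were higher in the libraries numbered 0. None of 6 immune, 2 endothelial, 3 epithelial and 2 erythroid markers was in the table, and 2 of 4 fibroblast markers were listed, Col1a1 and Pdgfrb. Neither was called with a hairpin, although the log2 fold change of Col1a1 was 1.71 with shRNA1 (SE 0.61, limma adjusted p = 0.103) and 1.20 with shRNA2 (SE 0.61, adjusted p = 0.227).

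Messages of ribosomal proteins hardly moved with either hairpin. All 82 members had estimates between -0.5 and 0.5 on the log2 scale in each hairpin comparison, and none was called higher. With shRNA1 over control, no member was called in either direction (limma), against 6.92% of all genes called higher and 5.49% called lower. At an unadjusted p under 0.05 there were 4 members, against 28.7% of all genes. With shRNA2 over control, no member was called higher and 1, Rpl36al, lower, against 7.27% and 5.67% of all genes. At an unadjusted p under 0.05 there were 7 members there, against 29.3% of all genes. In the mean of both hairpins over control, no member was called higher and 2, Rpl7l1 and Rpl36al, lower, against 9.69% and 7.89% of all genes, with 3 members and 33.2% of all genes at an unadjusted p under 0.05. The 2 hairpin comparisons share the control libraries.

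**Figure D1:**
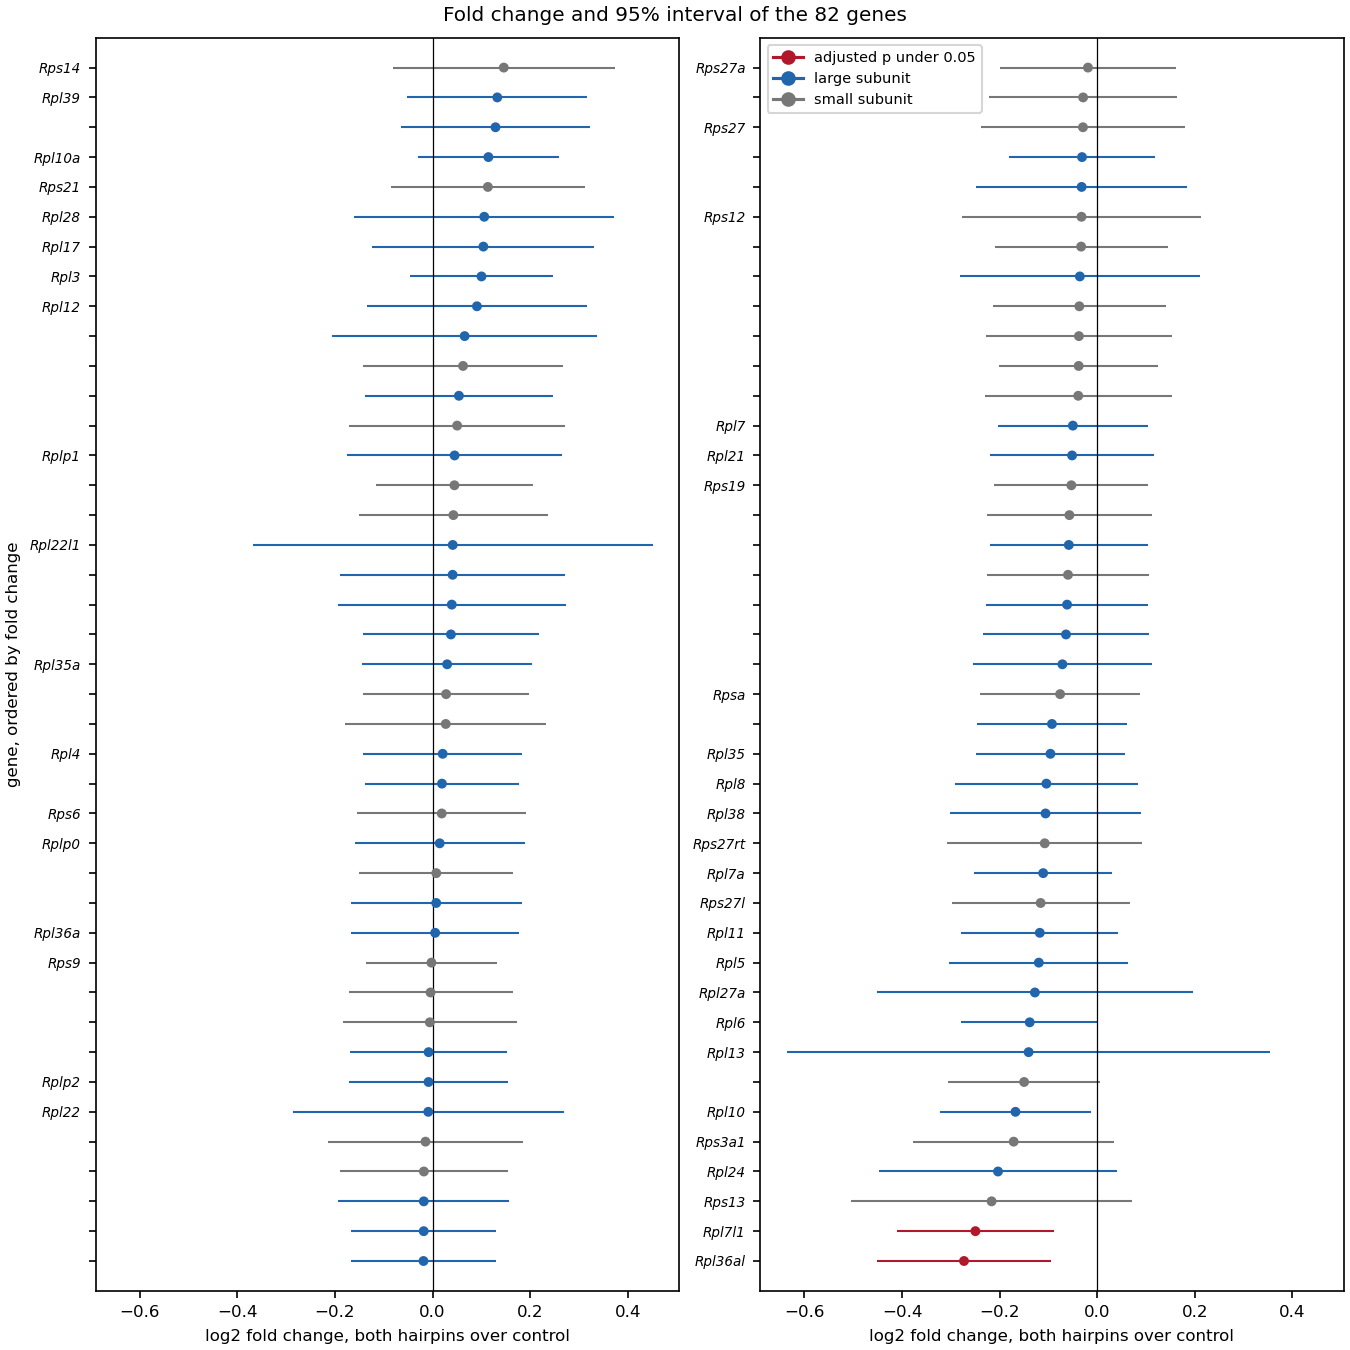
Log2 fold change of each of the 82 genes, mean of both hairpins over control (points), with its 95% confidence interval from limma (lines); the genes are ordered by fold change, the higher ones in the left panel, and those named in the text are labelled. Red marks Rpl7l1 and Rpl36al, the 2 genes with an adjusted p under 0.05, and the intervals of 80 of the 82 genes lie inside -0.5 to 0.5.

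The precision behind these counts can be read from the intervals. The 95% confidence interval lay wholly inside -0.5 to 0.5 for 80 of 82 members with shRNA1 (97.6%), for 76 with shRNA2 (92.7%) and for 80 in the mean of both hairpins (97.6%). Among all genes tested the same was true of 52.9%, 52.4% and 60.2%. The median half-width of the interval was 0.206 in the members and 0.277 in all genes for a single hairpin, and 0.178 and 0.240 for the mean of both. Of the members, Rpl13 and Rps13 had the intervals of the mean of both hairpins that reached below -0.5.

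The member median was 0.02 with shRNA1, -0.07 with shRNA2 and -0.02 in the mean of both hairpins, beside all-gene medians of 0.002, 0.005 and -0.001. The sign with shRNA2 and in the mean of both turned under quantile normalization, to 0.04 and 0.09, and with shRNA1 the median was 0.13 there. Without the 3 libraries numbered 0 the sign with shRNA1 turned, to -0.05. With the libraries scaled to an equal sum over the genes that are not members, the medians were 0.10, -0.01 and 0.05, and those of all genes 0.08, 0.07 and 0.07. Above 0 lay 53 of 82 estimates with shRNA1 and 13 of 82 with shRNA2. Large and small subunit genes had alike medians, 0.01 and 0.03 with shRNA1 and -0.06 and -0.08 with shRNA2. No direction is therefore given for the family as a whole.

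Rpl7l1 encodes a relative of Rpl7 that in yeast (Rlp7) belongs to precursors of the large subunit rather than to finished ribosomes. Rpl7l1 had log2 values of 7.23, 7.36 and 7.41 with shRNA1 and of 7.28, 7.52 and 7.38 with shRNA2, against 7.63, 7.57 and 7.64 with the control shRNA. All 6 hairpin libraries were below all 3 controls. In the mean of both hairpins Rpl7l1 fell by 0.25 (SE 0.07, limma adjusted p = 0.0413). With shRNA1 alone its log2 fold change was -0.28 (SE 0.08, adjusted p = 0.0569), which passed in 4 of 20 alternatives. It passed with the replicate number as a block (adjusted p = 0.0265) and without shRNA2 replicate 0 (0.0477). It also passed with each library centred on its median gene (0.0471) and without the 3 libraries numbered 0 (0.0272). With shRNA2 alone the log2 fold change was -0.22 (SE 0.08, adjusted p = 0.114). The call in the mean of both hairpins rested on most of the libraries. Dropping a control library gave an adjusted p of 0.102 (replicate 0), 0.111 (replicate 1) or 0.159 (replicate 2). Dropping an shRNA1 library gave 0.0610 (replicate 1) or 0.0512 (replicate 2), and dropping an shRNA2 library gave 0.0618 (replicate 0) or 0.0825 (replicate 2). Its sign was negative in all 19 alternatives, with log2 fold changes of -0.28 to -0.17, and it was called in 9 of them. With the replicate number as a block, the adjusted p in the mean of both was 0.0200. The parent gene Rpl7, a subunit of the finished ribosome, had a log2 fold change of -0.05 (SE 0.07, adjusted p = 0.657).

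Rpl36al is a paralog of Rpl36a, and both encode nearly the same large subunit protein. Rpl36al had log2 values of 7.71, 7.36 and 7.50 with shRNA1 and of 7.37, 7.46 and 7.38 with shRNA2, against 7.66, 7.78 and 7.76 with the control shRNA. All 3 shRNA2 libraries were below the controls, while replicate 0 of shRNA1 lay within the control range. The protein-coding gene Gm49383 holds an identical stretch of 333 bases, so reads may be split between the pair. Rpl36al fell by 0.33 with shRNA2 (SE 0.09, limma adjusted p = 0.0449) and by 0.27 in the mean of both hairpins (SE 0.08, adjusted p = 0.0437). With shRNA1 its log2 fold change was -0.21 (SE 0.09, adjusted p = 0.163), which was -0.31 with shRNA1 replicate 0 dropped (adjusted p = 0.0257, a call) and -0.13 with shRNA1 replicate 1 dropped (adjusted p = 0.373). The call in the mean of both held when shRNA1 replicate 0 was dropped (adjusted p = 0.00611) and was lost when any other library was. Dropping control replicate 0 gave an adjusted p of 0.0661, control replicate 1 of 0.174 and control replicate 2 of 0.156. Dropping shRNA1 replicate 1 gave 0.0622 and shRNA1 replicate 2 gave 0.0808. Among the shRNA2 libraries, dropping replicate 0 gave 0.0689, replicate 1 gave 0.0687 and replicate 2 gave 0.0864. For the call with shRNA2 alone, dropping a control library gave 0.0638 (replicate 0), 0.154 (replicate 1) or 0.142 (replicate 2), and dropping shRNA1 replicate 2 gave 0.0685. Dropping an shRNA2 library gave 0.0955 (replicate 0), 0.0971 (replicate 1) or 0.130 (replicate 2). With the replicate number as a block both calls held (adjusted p = 0.0325 with shRNA2 and 0.0330 in the mean of both). The sign of Rpl36al was negative in all 19 alternatives of the mean of both (-0.35 to -0.20, 8 called). Rpl36a itself had log2 values of 6.71, 6.59 and 6.69 with shRNA1 and of 6.45, 6.77 and 6.60 with shRNA2, against 6.60, 6.61 and 6.68 with the control shRNA. Those groups overlapped, and its log2 fold change was 0.01 (SE 0.08, adjusted p = 0.971).

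**Figure D2:**
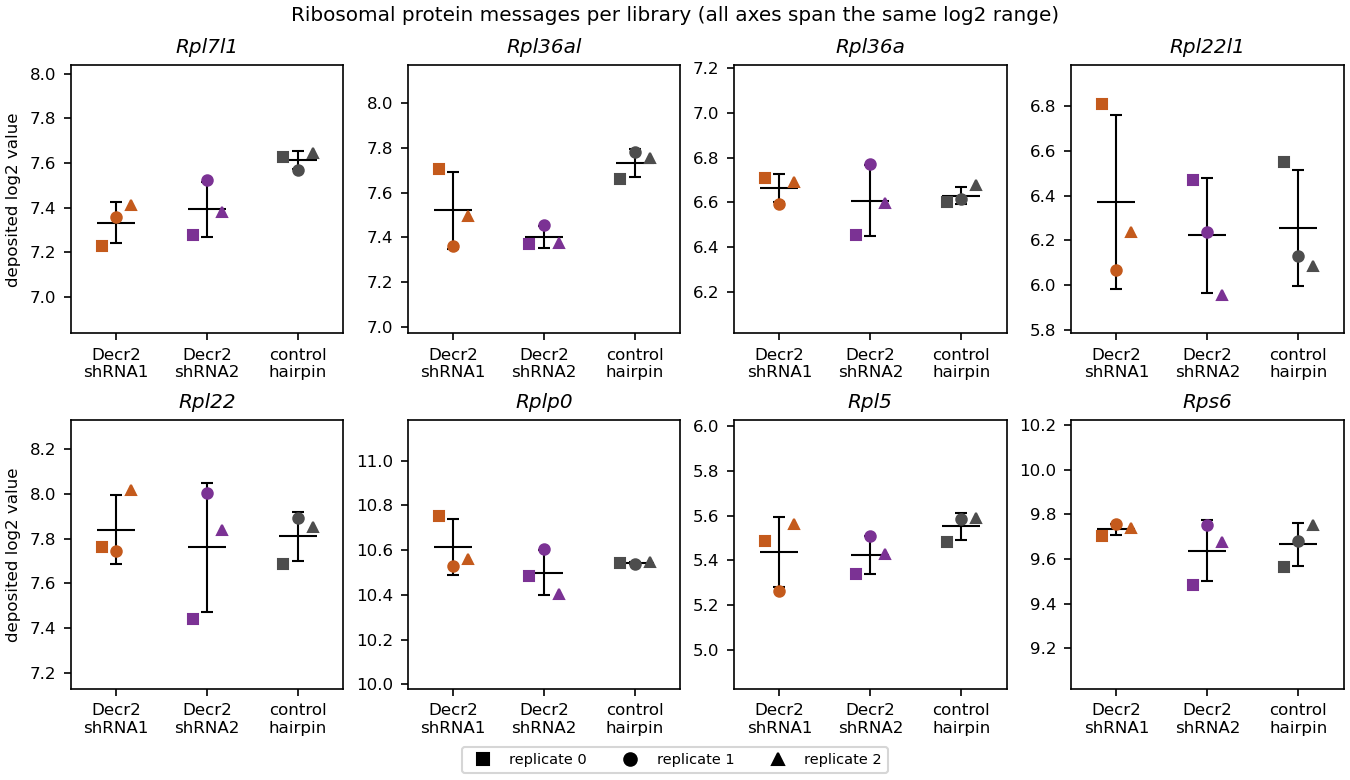
Deposited log2 value of 8 ribosomal protein genes in each library; symbols give the replicate number, and bars the mean and SD of the 3 libraries of a group. Rpl7l1 is below the controls in all 6 hairpin libraries and Rpl36al in 5 of 6, Rpl22l1 is highest in the library numbered 0 of every group, and Rpl36a, Rpl22, Rplp0, Rpl5 and Rps6 overlap between groups.

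The other 3 listed paralogs were not called with a hairpin. Rps27l, a paralog of Rps27 that p53 induces, had log2 values of 7.92, 7.59 and 7.68 with shRNA1 and of 7.45, 7.55 and 7.44 with shRNA2, against 7.63, 7.78 and 7.75 with the control shRNA. The shRNA2 libraries lay below both other groups. Its log2 fold change was -0.24 with shRNA2 (SE 0.09, limma adjusted p = 0.123) and 0.01 with shRNA1, and the difference of shRNA2 over shRNA1 was -0.25 (SE 0.09, adjusted p = 0.401). Without shRNA1 replicate 0, Rps27l passed with shRNA2 (adjusted p = 0.0289), and so it did without the 3 libraries numbered 0 (-0.27, adjusted p = 0.00699). Rps27rt, a gene that arose by copying of the Rps27 message back into the genome, had a log2 fold change of -0.11 in the mean of both hairpins (SE 0.09, adjusted p = 0.435), and Rps27, a small subunit protein with a zinc finger, of -0.03 (SE 0.09, adjusted p = 0.857). Rpl22l1, the paralog of the RNA-binding large subunit protein Rpl22, had a log2 fold change of 0.04 (SE 0.18, adjusted p = 0.898), and Rpl22 of -0.01 (SE 0.12, adjusted p = 0.972). Of the 9 paralogs listed, 5 were in the table; Rpl3l, Rpl10l, Rpl39l and Rps4l were not analysed here.

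Among the core large subunit genes, the stalk that recruits translation factors is made of Rplp0, Rplp1 and Rplp2. Rplp0 had log2 values of 10.76, 10.53 and 10.56 with shRNA1 and of 10.49, 10.61 and 10.41 with shRNA2, against 10.54, 10.54 and 10.55 with the control shRNA, and the groups overlapped. The log2 fold changes in the mean of both hairpins were 0.01 for Rplp0 (SE 0.08), 0.05 for Rplp1 (SE 0.10) and -0.01 for Rplp2 (SE 0.07), none called. Rpl5 and Rpl11 bind 5S ribosomal RNA and, when free, the p53 inhibitor Mdm2. Both stood at -0.12 (SE 0.08 and 0.07, limma adjusted p = 0.339 and 0.284). Rpl4, Rpl17 and Rpl39, which line the tunnel through which the new protein leaves, stood at 0.02, 0.10 and 0.13 (adjusted p = 0.869, 0.511 and 0.291). Rpl3, next to the site of peptide bond formation, was at 0.10 (SE 0.06, adjusted p = 0.315), and passed only under quantile normalization of the alternatives run (0.23, adjusted p = 0.0262), where Rpl4 did also (0.20, adjusted p = 0.0444).

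Rpl10, which joins the large subunit late and completes it, came closest to a call among the core genes in the mean of both hairpins. Its values are uncertain, since Rpl10-ps3 is identical to it over 740 bases. Rpl10 had log2 values of 8.69, 8.56 and 8.63 with shRNA1 and of 8.64, 8.42 and 8.45 with shRNA2, against 8.69, 8.77 and 8.74 with the control shRNA. The shRNA2 libraries were all below the controls, and replicate 0 of shRNA1 was at the level of control replicate 0. The log2 fold change was -0.17 in the mean of both hairpins (SE 0.07, limma adjusted p = 0.122) and -0.23 with shRNA2 (SE 0.08, adjusted p = 0.0914). With shRNA2 it passed without shRNA1 replicate 0 (adjusted p = 0.0497) or shRNA2 replicate 0 (0.0434). It also passed there without the 3 libraries numbered 0 (-0.32, adjusted p = 0.00164). Rpl24, a large subunit protein at the face toward the small subunit, had a log2 fold change of -0.20 in the mean of both hairpins (SE 0.11, adjusted p = 0.224). Its mean log2 value of 3.84 was the lowest of the members, whose median was 8.64, and lay below the 25% point of all genes (4.08). With shRNA2 its log2 fold change was -0.27 (SE 0.13, adjusted p = 0.187), which passed without shRNA2 replicate 0 (-0.41, adjusted p = 0.0430). Without the 3 libraries numbered 0 it passed as well (-0.43, adjusted p = 0.0106).

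Among the most positive estimates were those of Rps14 (0.15), Rpl39 (0.13), Rpl10a (0.11), Rps21 (0.11) and Rpl28 (0.11), all structural subunits and none called (limma adjusted p = 0.246 to 0.577). Rps14, a small subunit protein on chromosome 18, had log2 values of 9.46, 9.07 and 9.18 with shRNA1 and of 9.05, 9.32 and 9.04 with shRNA2, against 9.10, 8.95 and 9.07 with the control shRNA, and the groups overlapped. Rpl10a, a large subunit protein, had log2 values of 8.02, 7.97 and 7.90 with shRNA1 and of 7.78, 7.89 and 7.69 with shRNA2, against 7.82, 7.73 and 7.73 with the control shRNA. The shRNA1 libraries of Rpl10a were above the controls, with a log2 fold change of 0.20 that was not called (SE 0.07, adjusted p = 0.109). In all, all 3 shRNA1 libraries lay above the controls in 5 members (17.3% of all genes) and below in 3 (16.6%). The 5 included Rpl3, Rpl10a, Rpl12 and Rpl35a, and the 3 were Rpl7a, Rpl7l1 and Rpl24, named after their values were seen. With shRNA2, no member had all 3 libraries above the controls (20.1% of all genes) and 12 had all 3 below (18.7%). All 6 hairpin libraries were above the controls in no member (12% of all genes) and below in 2 (10.9%), Rpl7a and Rpl7l1, together 22.9% of all genes.

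Among small subunit genes, no member was called with either hairpin or in their mean. Rps6, whose protein is phosphorylated by the S6 kinases downstream of mTORC1, had log2 values of 9.71, 9.76 and 9.74 with shRNA1 and of 9.49, 9.75 and 9.68 with shRNA2, against 9.56, 9.68 and 9.75 with the control shRNA. The groups overlapped, and the log2 fold change in the mean of both hairpins was 0.02 (SE 0.08, limma adjusted p = 0.889). Rps19, the gene most often mutated in Diamond-Blackfan anaemia in humans, stood at -0.05, Rps27a, made as a fusion with ubiquitin, at -0.02, and Rpsa, also known as a laminin receptor, at -0.08. The lowest small subunit estimates were those of Rps13, a subunit near the contact with the large subunit, at -0.22 (SE 0.13, adjusted p = 0.272), and of Rps3a1, near the site where the mRNA leaves, at -0.17 (SE 0.09, adjusted p = 0.227). Fau, which carries a small subunit protein fused to a ubiquitin-like sequence, and the ribosomal scaffold Rack1 lie outside the naming rule. Their log2 fold changes of 0.05 and 0.04 were not called either (adjusted p = 0.732 and 0.770).

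Between the 2 knockdown lines, no member was called in shRNA2 over shRNA1 (limma), and 0.455% of all genes were. At an unadjusted p under 0.05 there were 3 members and 10% of all genes. All 3 shRNA2 libraries lay above the shRNA1 libraries in no member (7.72% of all genes) and below them in 3 (6.68%). The member median was -0.09, beside 0.005 for all genes, and 78 of 82 estimates were below 0, with 4 above. Without the 3 libraries numbered 0 the median was 0.01, so its sign rested on them, and no member was called there either (3.92% of all genes higher, 4.95% lower). Replicate 0 of shRNA1 had 77 of 82 members above their mean over the 9 libraries, and replicate 0 of shRNA2 had 6.

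Libraries of 1 group differed from each other in the members' general level by more than the groups did. The mean deviation of the 82 members from their own means was 0.14, -0.05 and 0.02 in shRNA1 replicates 0, 1 and 2, and -0.14, 0.05 and -0.07 in shRNA2 replicates 0, 1 and 2. It was -0.05, 0.05 and 0.05 in control replicates 0, 1 and 2. Whether the deposited values are per length was not given in the sources used here. On the linear scale as deposited, the members made up 4.70%, 4.11% and 4.27% of the library sum with shRNA1 and 3.83%, 4.41% and 4.02% with shRNA2, against 3.97%, 4.12% and 4.16% with the control shRNA. The group means were 4.36% ± 0.303, 4.09% ± 0.296 and 4.08% ± 0.103 (SD, n = 3 each), and the groups overlapped.

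**Figure D3:**
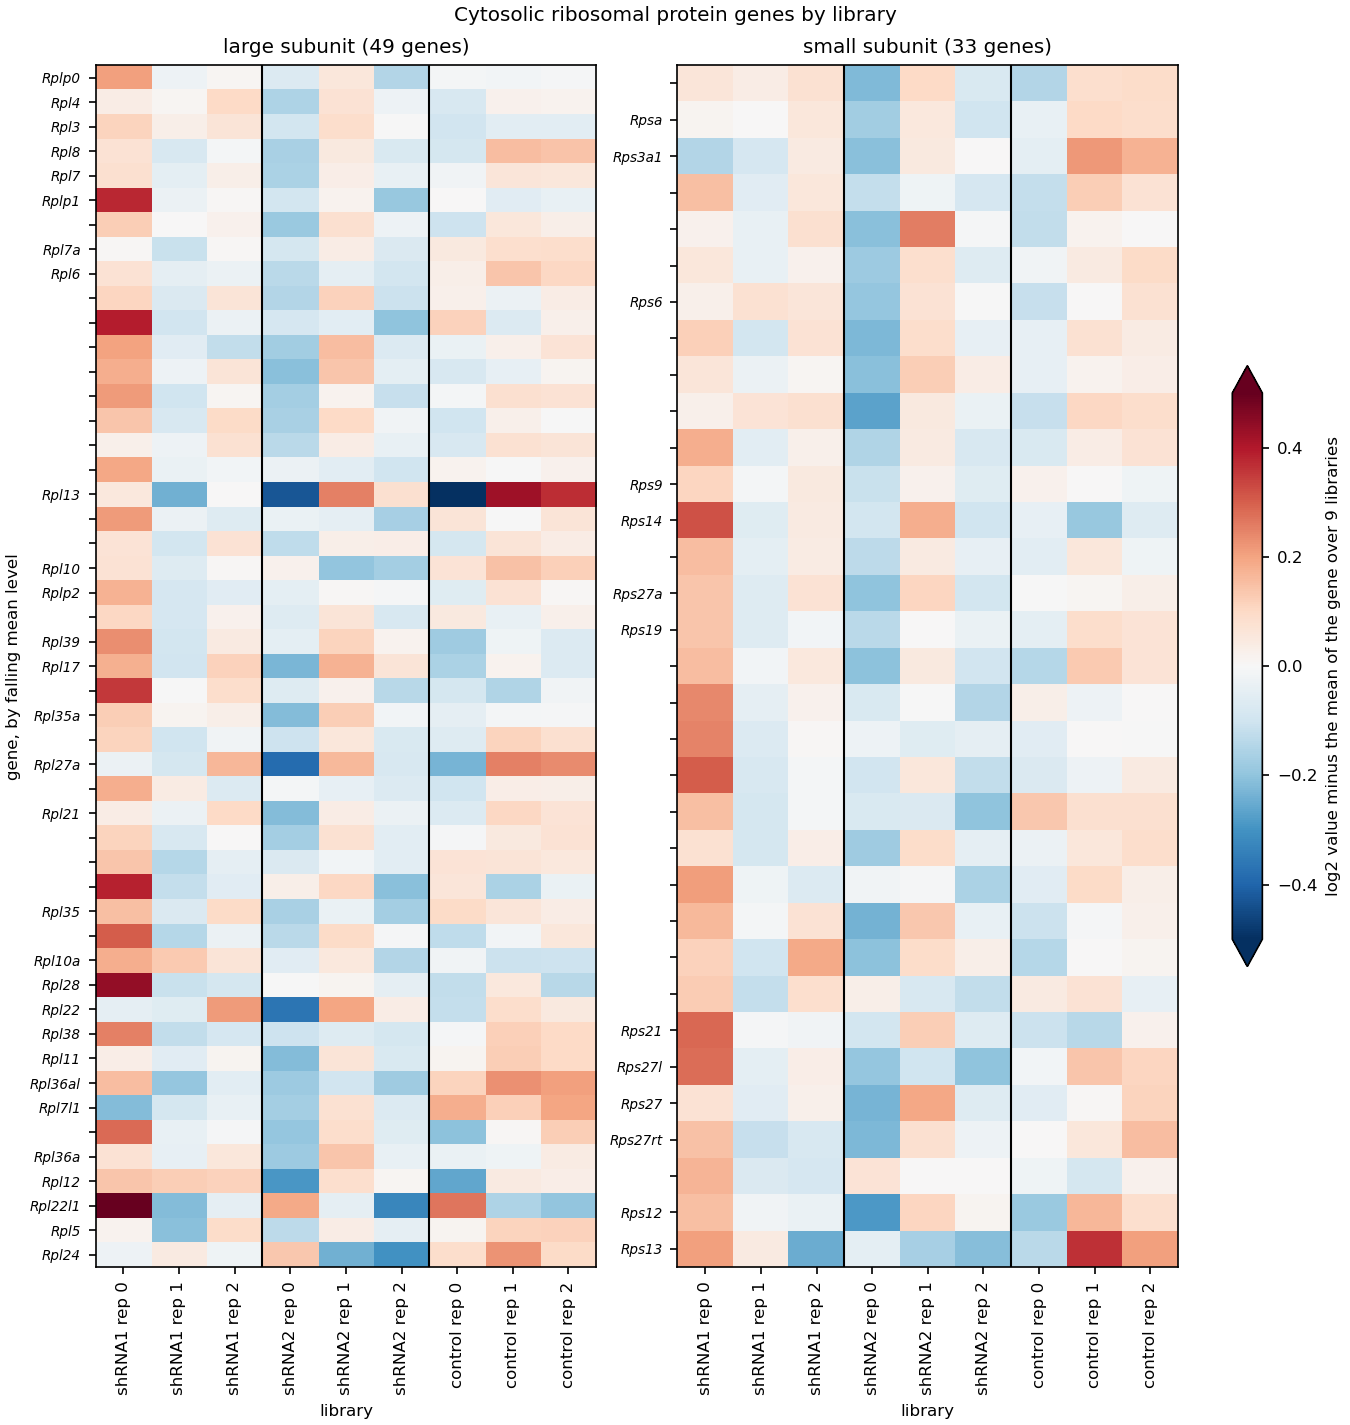
Log2 value of each of the 82 genes in each of 9 libraries minus the gene's mean over the libraries (red above, blue below; the colours end at 0.5 in either direction), by subunit and, from top to bottom, falling mean level on the deposited scale; genes named in the text are labelled. The column of shRNA1 replicate 0 is red for most genes and that of shRNA2 replicate 0 blue, while Rpl22l1 is red in the library numbered 0 of all 3 groups and Rpl13 and Rpl27a are blue in that library of shRNA2 and control.

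A few members moved with the replicate number instead. In the libraries numbered 0 over those numbered 1 and 2, with group in the fit, 1 member was called higher and 2 lower, against 12.1% and 11.4% of all genes (limma), and 10 members and 39.2% of all genes had an unadjusted p under 0.05. They are named because they passed. Rpl22l1 had log2 values of 6.81 in the library numbered 0, 6.07 and 6.24 in the others with shRNA1, of 6.47, 6.24 and 5.96 with shRNA2, and of 6.55, 6.13 and 6.08 with the control shRNA. The library numbered 0 was the highest of each group. Rpl22l1 was 0.49 higher there (SE 0.09, adjusted p = 0.00675), and it passed in all 17 alternatives, at 0.41 to 0.55. Its counterpart Rpl22, at -0.26 (SE 0.09, adjusted p = 0.0646), was not called. It stood at -0.33 with shRNA1 replicate 1 dropped (adjusted p = 0.0234, a call) and at -0.15 with shRNA2 replicate 0 dropped (adjusted p = 0.304). Rpl27a, a large subunit protein, fell by 0.32 in the libraries numbered 0 (SE 0.10, adjusted p = 0.0447) and Rps3a1 by 0.20 (SE 0.06, adjusted p = 0.0413). Each was lost without any single library other than shRNA1 replicate 0 or 1, with adjusted p of 0.0699 to 0.182 for Rpl27a and of 0.0724 to 0.144 for Rps3a1. With shRNA1 replicate 0 dropped, 6 members were lower (7.32%, against 5.77% of all genes), and with shRNA1 replicate 1 dropped, 4 were (4.88%, against 8.01% of all genes). Of the 7 melanocyte lineage markers, 6 were called higher in the libraries numbered 0, with a median log2 difference of 0.53 and a range of 0.19 to 0.87, and Col1a1, of the fibroblast markers, was called higher as well (1.23, SE 0.36, adjusted p = 0.0410). The part of these markers in the members' values was not tested. What the number stands for is not given in the labels. With the number as a block, 1 member was called lower with shRNA1, 1 with shRNA2 and 2 in the mean of both hairpins. Of all genes, 11.2%, 10.6% and 14.1% were lower. No member was called higher there, against 13.4%, 13.4% and 16.2% of all genes.

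Leaving out the 3 libraries numbered 0 gave more calls, both among the members and among all genes. With 2 libraries a group, 10 members were called lower with shRNA1, 10 with shRNA2 and 12 in the mean of both hairpins (limma). These were 12.2%, 12.2% and 14.6% of the members, each below the share of all genes (16.9%, 18.1% and 20.5%). No member was called higher, against 17.6%, 19.2% and 20.9% of all genes. In the mean of both hairpins the members called lower included Rpl6, Rpl7l1, Rpl8, Rpl10, Rpl13, Rpl24, Rpl36al, Rpl38, Rps3a1, Rps13 and Rps27l. The largest were Rps13, at -0.43 (SE 0.09, adjusted p = 0.00564), Rpl13, a large subunit protein, at -0.37 (SE 0.07, adjusted p = 0.0046), and Rpl36al, at -0.35 (SE 0.05, adjusted p = 0.00147). Rpl7l1 stood at -0.19 (SE 0.05, adjusted p = 0.0248). Rpl13 had log2 values of 8.42 and 8.66 with shRNA1 and of 8.92 and 8.74 with shRNA2, against 9.09 and 9.03 with the control shRNA, in the libraries numbered 1 and 2. Its values in the libraries numbered 0 were 8.72, 8.23 and 8.15 in the same order of groups, the lowest of all being the control. Over all 9 libraries its log2 fold change was therefore -0.14 (SE 0.22, adjusted p = 0.702).

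The members varied little within groups. The median SD between libraries of a group was 0.107 over the 82 members and 0.155 over all genes. Of the members, 77 were among the 2691 genes with the highest mean level on the deposited scale, for which division by length is not known. Their median SD was 0.102, beside 0.124 for all 2691. Rps9, a small subunit protein, varied least (SD 0.0525), and Rpl13 (0.377), Rpl22l1 (0.308) and Rpl27a (0.238) most.

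Near-identical gene copies limit what can be said of single members. In the GENCODE M21 transcripts, 79 of 82 members had at least 1 copy (at least 95% identity over at least 150 bases and 50% of the shorter transcript), with a median of 5.0 and up to 62 for Rpl21. Among the 3 with none were Rpl8 and Rps27l. Of 659 distinct copies, 640 are annotated as pseudogenes, and none of those was in the table. The table held 10 copies, 8 of them not members. Rps12-ps3, annotated as protein-coding and identical to Rps12 over 494 bases, held 82.2% to 85.4% of the summed linear value of the pair in each library. Rpl10-ps3 held 42.9% to 48.7% of the sum with Rpl10, Gm2000 30.0% to 37.7% with Rpl35, BC004004 20.6% to 30.4% with Rpl21, and Gm49383 8.03% to 11.5% with Rpl36al. Rps27rt and Rps27, both members, share 341 identical bases, and Rps27rt held 38.0% to 41.1% of their sum. The values of these members are therefore uncertain, because the authors' estimation could split reads between copies. With the copies summed into the member, the same numbers of members were called in each comparison, and Rpl36al fell by 0.28 in the mean of both hairpins (adjusted p = 0.0373).

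Some genes that build the ribosome fell with the hairpins. Of 34 ribosome assembly factors, all measured, none was called higher and 19 lower in the mean of both hairpins, with a list median of -0.33; among all genes 9.69% were called higher and 7.89% lower, with a median of -0.001. Nop2, which methylates 28S ribosomal RNA, fell by 0.59 (SE 0.05, limma adjusted p = 0.000433), Pno1, a small subunit assembly factor, by 0.60 (SE 0.07), Grwd1, whose yeast counterpart is a chaperone of Rpl3, by 0.62 (SE 0.08), and Nop56, a core protein of box C/D snoRNPs, by 0.44 (SE 0.06). With shRNA1, 12 of the 34 fell, with a range of 3 to 20 under the alternatives run. That count was 3 with control replicate 1 dropped, 4 with control replicate 2 dropped and 20 without the libraries numbered 0. Of all genes, 1.19%, 1.21% and 16.9% were lower in those settings, in the same order. With shRNA2, 15 fell, with a range of 6 to 25. That count was 7 with control replicate 1 dropped (1.43% of all genes lower) and 6 with control replicate 2 dropped (1.38%). It was 23 with shRNA1 replicate 0 dropped (10.3%) and 8 with shRNA2 replicate 1 or 2 dropped (1.62% and 1.84%). It was 25 with the replicate block (10.6%) or without the libraries numbered 0 (18.1%). Under the alternatives run, 7 to 26 fell in the mean of both, the list median staying between -0.35 and -0.26. The share of all genes lower ran from 2.2% to 20.5% under them. The count was 8 when control replicate 1 was dropped (2.22% of all genes) and 7 when control replicate 2 was (2.2%). Of 14 measured RNA polymerase I genes, 5 fell and none rose (median -0.20), among them the subunits Polr1b (-0.69, SE 0.06), Polr1e (-0.49, SE 0.10) and Cd3eap (-0.54, SE 0.12) and the initiation factor Rrn3 (-0.28, SE 0.06). Of the 14, 2 fell when control replicate 1 was dropped (2.22% of all genes) and 1 when control replicate 2 was (2.2%). Under the alternatives run, 1 to 7 of these genes were called lower and 0 to 2 higher in the mean of both. Of all genes, 2.2% to 20.5% were called lower and 3.5% to 20.9% higher under them. The difference between these lists and the ribosomal proteins was not tested, and the lists were chosen with earlier results of these data known.

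**Figure D4:**
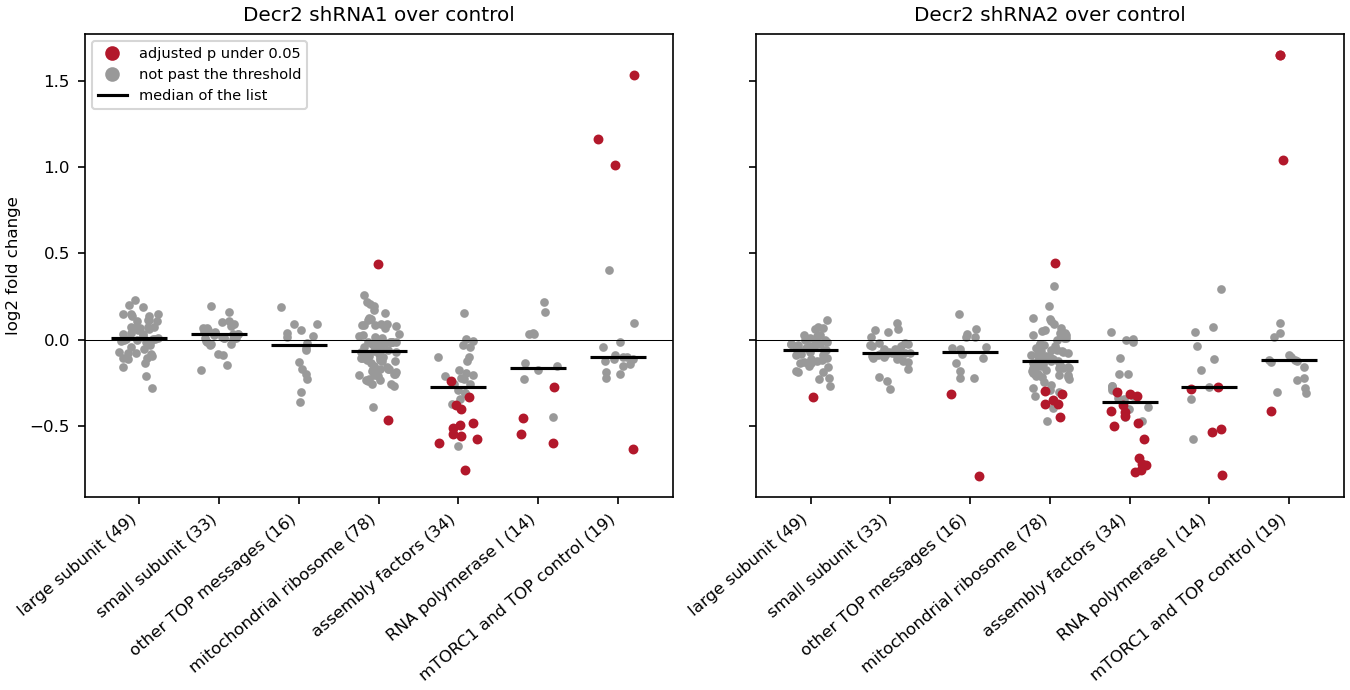
Log2 fold change of each gene (points) with shRNA1 over control (left) and shRNA2 over control (right), by gene list, with the number of genes measured; red marks an adjusted p under 0.05 and the line the list's median. The large and small subunit genes lie in a narrow band around 0 with 1 red point in all, Rpl36al with shRNA2. Of the 34 assembly factors, 12 and 15 are red and lower. Those counts ran from 3 to 20 and from 6 to 25 under the alternatives. Of all genes, 1.19% to 16.9% and 1.38% to 18.1% were lower there.

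Other messages with a TOP motif were counted in the same way. Of 16 such genes, all measured, none was called higher and 2 lower in the mean of both hairpins, against 9.69% and 7.89% of all genes. The median of -0.03 turned to 0.04 with an equal sum over genes that are not members, to 0.05 with quantile normalization and to 0.02 when control replicate 1 was dropped. The 2 were Npm1, a nucleolar chaperone, at -0.58 (SE 0.12, limma adjusted p = 0.0113) and the elongation factor subunit Eef1d at -0.27 (SE 0.07, adjusted p = 0.0366). Their number was 0 when control replicate 1 or 2 was dropped, and 1 when control replicate 0, either of shRNA1 replicates 1 and 2, or either of shRNA2 replicates 1 and 2 was. It was 5 with the replicate block and 6 with the libraries numbered 0 left out. Of all genes, 2.22% and 2.2% were lower with control replicate 1 or 2 dropped, and 5.18% to 6.52% in the settings that gave 1. The block gave 14.1% of all genes lower, and leaving out the libraries numbered 0 gave 20.5%. Of 78 mitochondrial ribosomal protein genes, whose products form a separate ribosome inside mitochondria, 1 was called higher and 4 lower, against the same shares of all genes (median -0.10). Mrpl24 rose by 0.44 (SE 0.10), and Mrpl18 fell by 0.39 (SE 0.08), Mrps18b by 0.32 (SE 0.07) and Mrps22 by 0.32 (SE 0.08). The number lower there was 0 when control replicate 1 or 2 was dropped (2.22% and 2.2% of all genes). It was 2 when shRNA1 replicate 1 or shRNA2 replicate 2 was (6.52% and 5.18%), and 16 when shRNA1 replicate 0 was (11.6%). It was 7 with the replicate block (14.1% of all genes) and 24 with the libraries numbered 0 left out (20.5%). The number higher was 0 when control replicate 1 or 2 was dropped (3.5% and 3.66% of all genes) and 2 when shRNA2 replicate 0 was (9.08%).

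Some regulators of ribosomal protein translation moved further than any ribosomal protein message did. Of 19 genes of mTORC1 and TOP control, 3 were called higher and 2 lower in the mean of both hairpins, against 9.69% and 7.89% of all genes (median -0.12). Ddit4 and Sesn2, stress-induced inhibitors of mTORC1, rose by 1.41 (SE 0.11, limma adjusted p = 0.000332) and 1.59 (SE 0.22, adjusted p = 0.00298), and Eif4ebp1, an inhibitor of the cap-binding factor eIF4E, rose by 1.03 (SE 0.13, adjusted p = 0.00199). Each of the 3 was also called higher with shRNA1 and with shRNA2. Max, the partner of Myc, fell by 0.32 (SE 0.07, adjusted p = 0.0181), and Larp4, which protects poly(A) tails, by 0.47 (SE 0.13, adjusted p = 0.0366). The number lower was 0 when any control library was dropped (2.2% to 5.71% of all genes) and 1 when shRNA2 replicate 0 or 1 was (7.23% and 5.24%). It was 4 with the replicate block (14.1% of all genes) and 6 with the libraries numbered 0 left out (20.5%). In that last setting 5 were higher, beside 20.9% of all genes. Larp1, the TOP-binding repressor, was at -0.06 (SE 0.14, adjusted p = 0.796), Mtor at -0.20 (SE 0.12, adjusted p = 0.288) and Myc at -0.19 (SE 0.06, adjusted p = 0.0658), none called. Message levels do not measure translation or mTORC1 activity.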

How the data were processed

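The authors deposited 1 table of 10762 genes that gives each library a log2 value and, according to its headers, their own fold changes, t scores and p-values for each hairpin; these were used only for the check of the column names. Kallisto, FastQC and limma are named, without versions, per the submitters' processing notes. Genome build, annotation, strand setting, filter and scaling were not given in the sources used here. Raised to the power of 2, the values summed to 969465 to 1045849 per library; read depth is unknown, so precision comes from the spread between libraries. The hairpin of a column was read from the authors' headed comparisons (99.95% and 99.7% of genes within 0.05 on the log2 scale of the assigned columns, against 26.6% for the other assignment of shRNA1).

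Fits used limma 3.58.1 (R 4.3.3) on all genes and 9 libraries as deposited, with a mean per group, trended empirical Bayes (6 residual and 3.3 prior degrees of freedom), Benjamini-Hochberg adjustment over all genes and a threshold of 0.05; SE and 95% intervals are from these fits. The comparison by replicate number added group and number terms. The labels do not call the replicates separate cultures, so the p-values reflect only how these libraries vary. Same-numbered libraries deviated together across all genes (r of 0.387 to 0.644 for number 0, 0.126 to 0.220 for 1, 0.197 to 0.505 for 2), which pairs them. The main fit holds no term for this pairing, so its SE and intervals do not take it into account. The fit was tested on simulated data in which libraries varied independently, a test that does not cover this pairing.

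The members and lists were chosen with earlier results of these data known. Genes were named by rule: called members of the mean of both hairpins with the most extreme uncalled ones up to 6 a direction, called members of the other hairpin comparisons, members by role, paralogs with parents, and up to 4 called genes (or 2 uncalled) of each other list. In addition, Rpl7a, Rpl12, Rpl13, Rpl27a, Rpl35a, members called without the libraries numbered 0, those varying most and least, Larp1, Larp4, Mtor and Myc were named after their values were seen. A few genes are not reported here. Copies were found with blastn 2.17.0 in GENCODE M21 transcripts. Alternatives tried were no trend, robust empirical Bayes, only the groups compared, the lowest 25% of genes removed, 3 other scalings, 1 added on the linear scale, the replicate block, each library left out, the libraries numbered 0 left out, the paralogs left out and, added after seeing the data, copies summed. The counts of the other lists under these alternatives were also added after seeing the data.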

Additional observations from a re-analysis of the deposited data

How the results depend on the processing

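No member was called higher in a hairpin comparison under the alternatives run, except 2 in the mean of both hairpins under quantile normalization. Those 2 were 2.44% of the members, beside 7.23% of all genes called higher there. In the comparisons over control, 1.84% to 20.9% of all genes were called higher under the alternatives. The number lower in the mean of both (2) was 0 under 4 settings. These were no trend (7.06% of all genes lower) and an equal sum over genes that are not members (4.72%). The others were quantile normalization (7.24%) and the paralogs left out (7.89%). Without the 3 libraries numbered 0 it was 12 (14.6%, against 20.5% of all genes). With each library left out it was 0 to 4, beside 2.2% to 11.6% of all genes. The 4 (4.88%) came with shRNA1 replicate 0 dropped, where 11.6% of all genes were lower. With shRNA2 (1 lower) it was 0 under the same 4 settings, where 3.55% to 5.67% of all genes were lower. It was 10 without the libraries numbered 0 (12.2%, against 18.1% of all genes). With each library left out it was 0 to 4, beside 1.38% to 10.3% of all genes. With shRNA1 (0 lower) it was 1 with each library centred on its median gene (6.27% of all genes) and with the replicate block (11.2%). It was 10 without the libraries numbered 0 (12.2%, against 16.9% of all genes). With each library left out it was 0 to 1, beside 1.19% to 6.72% of all genes. The replicate block changed no other count of members by over 1.5 times in a hairpin comparison. The member median moved beyond the spread between libraries (SD 0.0853) under quantile normalization, to 0.134 with shRNA1, 0.0394 with shRNA2 and 0.0896 in the mean of both, and without the libraries numbered 0 to 0.0132 in shRNA2 over shRNA1. By replicate number it also moved beyond that spread, from -0.0253 to -0.123, with shRNA1 replicate 0 dropped. With each library left out, the medians ran from -0.03 to 0.07 with shRNA1, from -0.12 to -0.02 with shRNA2, from -0.05 to 0.004 in the mean of both and from -0.14 to -0.03 in shRNA2 over shRNA1. By replicate number, the 2 members lower became 0 with no trend (8.62% of all genes lower). They also became 0 with an equal sum over genes that are not members (9.93%) and with quantile normalization (11.3%). They became 1 with each library centred on its median gene (11.4%). The 1 higher became 0 without the paralogs (12.1% of all genes higher). With each library left out, 1 to 2 were higher (4.94% to 14% of all genes) and 0 to 6 lower (4.7% to 14.7%). The member medians were then -0.123 to 0.0214. The causes were not tested. The log2 fold change of Decr2 was -1.23 to -0.90 with shRNA1 and -2.91 to -2.56 with shRNA2 with each library left out; the shRNA1 call ended with control replicate 1 dropped (-0.98, adjusted p = 0.0872), with control replicate 2 dropped (-1.18, adjusted p = 0.0537) and with shRNA1 replicate 1 dropped (-0.90, adjusted p = 0.0579). Depth is unknown and there were 3 libraries a group, so small changes of single members may have been missed; estimates as large as -0.29 (Rps13 with shRNA2) were not called.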
